A study of Mus musculus with 90 samples.

Results

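The clustered protocadherins are neural cell adhesion genes that lie side by side on mouse chromosome 18 in an alpha, a beta and a gamma cluster. Members were taken by symbol, as every gene named Pcdha, every Pcdhb with a number and every Pcdhga, Pcdhgb or Pcdhgc with a number. This gave 58 genes of the 24984 in the neural count table and of the 24961 in the embryoid body count table: 12 alternate alpha isoforms, 2 C-type alpha isoforms (Pcdhac1 and Pcdhac2), 22 beta genes, 12 gamma a, 7 gamma b and 3 C-type gamma isoforms (Pcdhgc3, Pcdhgc4 and Pcdhgc5).

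Each alpha and gamma isoform joins a variable first exon with its own promoter to constant exons shared by its cluster, whereas each beta gene is a single exon that stands alone. Single neurons express a small, largely random set of the alternate isoforms, chosen with the help of CTCF and cohesin looping to distant enhancers, and several C-type isoforms by a steadier rule. The proteins bind like proteins on opposed membranes, which lets neurites of one neuron recognise and avoid each other.

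The libraries were made from J1 mouse embryonic stem cells on feeder fibroblasts (day 0) and from cells differentiated from them after removal of the feeders. In the neural series (NPC) cells were aggregated, given retinoic acid and collected on days 6 and 8. In the embryoid body series (EB) they were grown in hanging drops and then in suspension, and collected on days 6 and 10. Both series hold 5 genotypes as labelled: WT, CBX7-CaPS, CBX7-mCaPS, CBX7 KO and CBX7-CaPS-R, with 3 libraries for each genotype and day, 90 libraries and 30 groups in all. CBX7 is a Polycomb repressive complex 1 subunit, and CaPS stands for the compaction and phase separation domain of its paralog CBX2, with mCaPS a mutated form of it. The labels used here do not say how many clones a line stands for, what CaPS-R is, or whether the 3 libraries of a group came from separate cultures, so p-values measure the spread between these libraries, which may be technical.

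Libraries held 11.8 M (mega, M) to 59.3 M counts in the NPC table and 10.6 M to 55.9 M in the EB table, of which the ribosomal gene Rn45s took 4.24% to 50.3% and 2.73% to 88.7%. The 6 EB libraries of WT and CBX7-CaPS numbered 1 stood apart, with 13.1 M to 18.8 M counts and Rn45s at 2.73% to 4.43%. Reads on Cbx7 were present in all libraries labelled CBX7 KO: on NPC day 0 they came to 143, 173 and 148 CPM (counts per M counts of the library) outside Rn45s, against 236, 196 and 210 in WT. On NPC day 8 they stood at 18.9, 26.8 and 61.8 CPM against 23.7, 28.3 and 22.9 in WT, so that no lower level was seen there, and the 2 ranges overlapped on NPC day 6 and on all 3 EB days as well. These counts therefore do not check the KO label on day 8. A gene count cannot check a deletion whose extent the labels do not give. Summed marker levels followed the labelled stages in WT: 7 pluripotency markers fell from 2271–2526 CPM on NPC day 0 to 14.5–46.2 on day 8, while 15 neuron markers stood at 392–646 and then 1451–2763. In the EB series the 15 neuron markers summed to 340–445 CPM on day 0 and only 162–200 on day 10.

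In the mm10 annotation the alpha cluster spans chromosome 18 from 36930285 to 37187660, the beta cluster 37264998 to 37521419 and the gamma cluster 37661945 to 37841872. Alternate alpha isoforms that could be counted had 2346 to 2504 exon bases of their own, and gamma isoforms 2364 to 2961, against 2860 or more (alpha) and 2109 to 2118 (gamma) bases shared with other isoforms. Beta genes shared no exon bases. Read totals of alpha and gamma isoforms therefore come from the variable exons if reads in shared exons were left unassigned, a setting the sources used here do not give. Pcdha4, Pcdha6 and Pcdha7 had no bases of their own in that annotation and 0 counts in every library. Their first exons also lie inside Gm37013, Gm38666 and Gm38667, and the constant exons shared with the other alpha isoforms gave them no counts either. They are absent from these counts, which says nothing of their expression.

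In the day 0 libraries the gamma cluster was on and the alpha and beta clusters were close to silent. The day 0 stem cells were grown on feeder fibroblasts, and the feeders' part in these levels was not tested. On NPC day 0, 23 of the 58 members reached 0.5 CPM in every WT library: 21 of 22 gamma genes, 2 of 22 beta genes and 0 of 14 alpha genes. Pcdhgc3, the C-type gamma isoform that many non-neural cells express, stood at 52.5, 51.8 and 21.4 CPM in WT libraries 1, 2 and 3. The 19 gamma a and b isoforms summed to 67.6, 66.3 and 62.5 CPM, the 22 beta genes to 12.3, 9.1 and 4.46, and the 12 alternate alpha isoforms to 2.3, 0.832 and 2.17. Both detected beta genes, Pcdhb17 (2.47, 2.24 and 1.16 CPM) and Pcdhb22 (2.47, 2.03 and 1.12 CPM), lie in the downstream part of the cluster.

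By NPC day 8 the beta cluster of WT cells had come on as a whole. The 22 beta genes summed to 59, 25.3 and 21.2 CPM on day 6 and to 258, 142 and 142 CPM on day 8 (181 ± 67.1, SD, n = 3). No day 8 library overlapped with a day 0 or day 6 library. All 21 beta genes that passed the low-count filter were higher on day 8 than on day 0 by edgeR's quasi-likelihood test at a Benjamini-Hochberg adjusted p below 0.05, where 52.4% of all 17818 genes tested were called, 27.5% higher and 24.9% lower. Their median log2 fold change was 4.88 (4.87 with genes at 0 on day 0 set at their lower bound), against 0.05 for all genes. The 22nd, Pcdhb1, drew 56 counts over all 36 libraries of this table and was not tested.

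**Figure D1:**
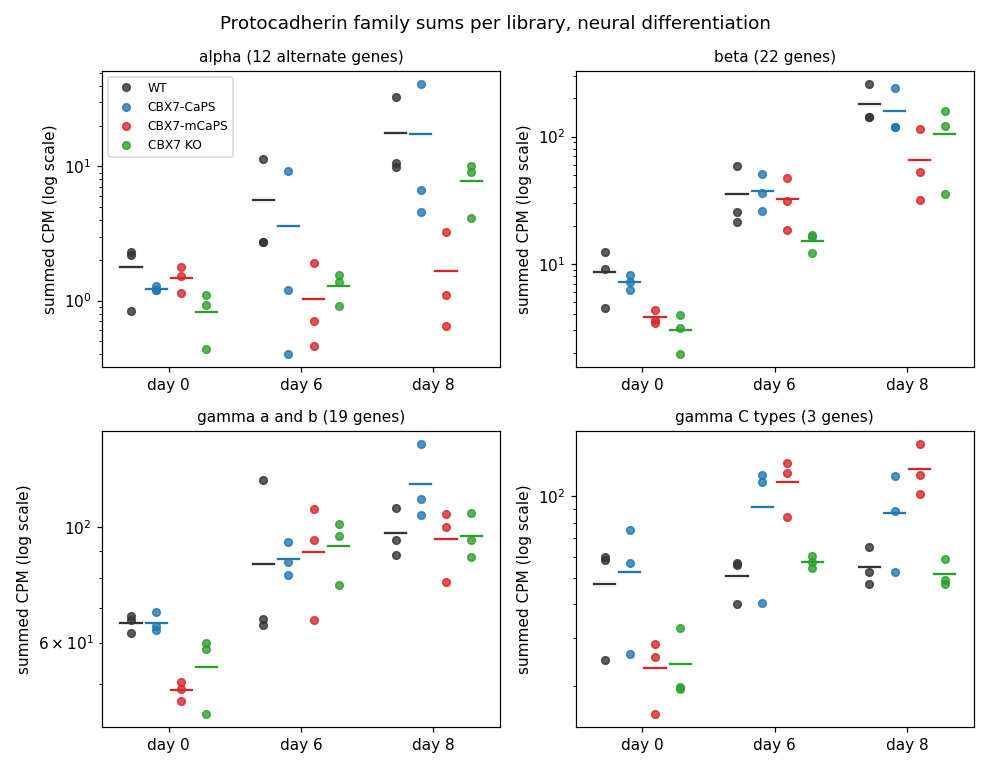
Summed CPM of the alternate alpha, beta, gamma a and b, and C-type gamma isoforms in each NPC library (points, by genotype) on days 0, 6 and 8, on logarithmic y axes, with short lines at group means. WT beta sums rose from 4.46–12.3 on day 0 to 142–258 on day 8, and CBX7-mCaPS held the lowest alpha sums on day 8.

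Pcdhb11 showed the size of the rise. It stood at 0.425, 0 and 0.0725 CPM on day 0, at 4.27, 2.51 and 1.53 on day 6, and at 27.5, 12.7 and 13.4 on day 8 (17.9 ± 8.37, SD, n = 3). The groups did not overlap, and the log2 fold change of day 8 over day 0 was 6.89 ± 0.98 (SE; edgeR quasi-likelihood, adjusted p = 1.57e-06). Pcdhb16, the beta gene with the highest mean over the NPC libraries (7.15 CPM), went from 1.02, 1.09 and 0.181 CPM to 31.3, 20 and 16.3, and its ranges did not overlap either. Pcdhb10 had 0 counts in all 3 day 0 libraries and 7.39, 1.94 and 1.84 CPM on day 8, at least 111-fold higher when day 0 is set at 3 counts over the group. Pcdhb9, also at 0 on day 0, was at least 18.3-fold higher (1.45, 0.162 and 0.225 CPM on day 8). The smallest rise among the beta genes was that of Pcdhb22, at 2.57 ± 0.49 on the log2 scale (adjusted p = 8.63e-05, edgeR), from a day 0 level that only Pcdhb17 exceeded among the beta genes. Day 8 library 1 was the highest of the 3 for most beta genes, and it also had the highest neuron marker sum, 2763 CPM against 1639 and 1451. Fewer neurons and less RNA per neuron cannot be told apart in bulk samples.

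The alternate alpha isoforms rose with wider spread. Their sum was 11.4, 2.75 and 2.73 CPM on day 6 and 33, 9.96 and 10.6 CPM on day 8, so each day 8 library stood above every day 0 library but 2 of them lay below day 6 library 1. Of the 9 tested, 6 were higher on day 8 than on day 0 (median log2 fold change 4.06, or 3.89 with Pcdha1 at its bound). Pcdha5, the alpha isoform with the highest mean over the NPC libraries (0.874 CPM), went from 0.0851, 0 and 0.435 CPM to 4.9, 1.88 and 1.73 (log2 4.06 ± 1.01, adjusted p = 0.0013, edgeR). Pcdha12, the alternate isoform that lies nearest to the C-type exons, had the narrowest day 8 spread, at 2.37, 2.48 and 2.44 CPM from 0.425, 0.156 and 0.362 (log2 2.96 ± 0.86, adjusted p = 0.0049). Pcdha1 had 0 counts on day 0 and was at least 14.8-fold higher on day 8. Pcdha9, Pcdha10 and Pcdha11 lay above 0 in log2 fold change and missed the threshold.

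The 2 C-type alpha isoforms parted in their calls. Pcdhac1 had 0, 0.104 and 0 CPM on day 0, too few reads for a fold change, and 1.36, 0.7 and 0.601 CPM on day 8 (adjusted p = 0.0141, edgeR). Pcdhac2, which is known for the spacing of serotonergic axons, stood at 0.255, 0.156 and 0.362 CPM and then at 0.475, 0.377 and 0.15 (log2 0.40 ± 0.73, adjusted p = 0.67). Its groups overlapped, and the sign turned (log2 −0.039) when day 8 library 1 was left out. The difference between the isoforms was not tested.

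**Figure D2:**
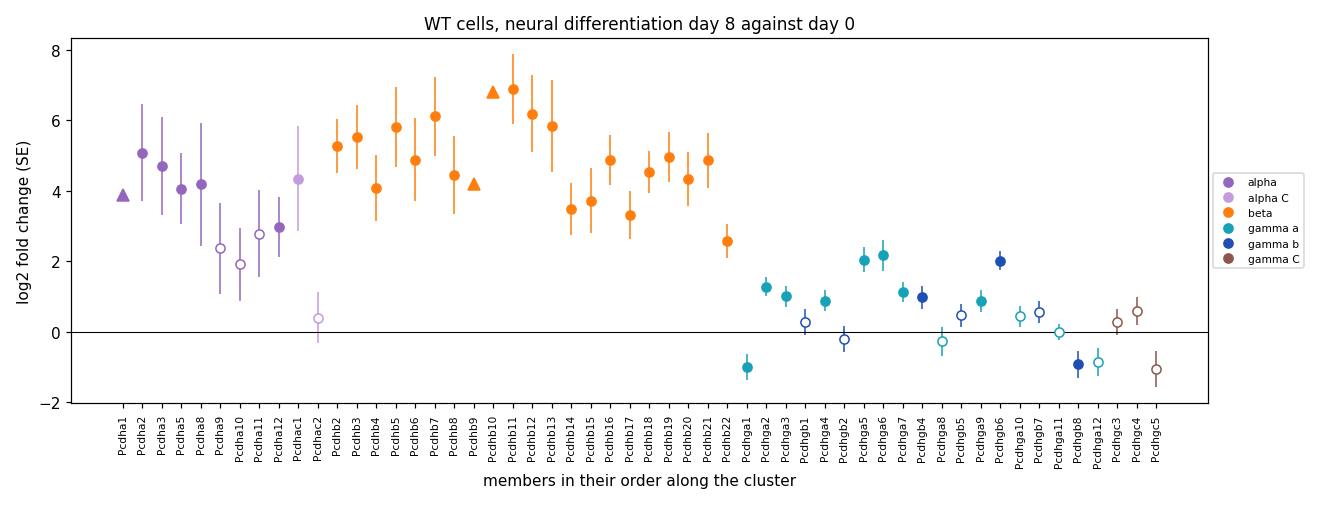
Log2 fold change of every tested member in WT cells on NPC day 8 against day 0 (y axis), in cluster order from alpha through beta to gamma (x axis), with standard errors as bars, filled points for adjusted p below 0.05 and triangles for the lower bound of genes at 0 on day 0. All 21 tested beta genes are filled and above 0, while gamma genes lie on both sides of it.

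Within the gamma cluster, which was already on, single isoforms moved in both directions. Of the 12 gamma a isoforms 7 were higher and 1 lower on day 8, of the 7 gamma b isoforms 2 were higher and 1 lower, and of the 3 C-type isoforms 0 passed (1 at an unadjusted p below 0.05). As a share of the gamma isoforms these calls lie near the 52.4% called among all genes. The summed gamma a and b level went from 62.5–67.6 CPM on day 0 to 88.6–109 on day 8, less than the beta sum. Pcdhgb6, the gamma b isoform with the highest mean over the NPC libraries (7.71 CPM), rose from 2.64, 2.89 and 3.23 CPM to 12.6, 12.4 and 10.3 (log2 2.01 ± 0.28, adjusted p = 9.29e-07, edgeR). Pcdhga5 rose from 1.96, 1.59 and 2.1 CPM to 6.59, 9.23 and 7.47 (log2 2.05 ± 0.35, adjusted p = 1.86e-05). Pcdhga7, with the highest mean among gamma a isoforms (7.26 CPM), went from 5.44, 4.13 and 3.12 CPM to 10, 9.64 and 7.99. In these 3 genes every day 8 library was above every day 0 library.

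The 2 gamma isoforms that fell stand at either end of the alternate exons. Pcdhga1, the first of the cluster, went from 4.47, 5.44 and 5.29 CPM to 2.97, 2.58 and 1.99 (log2 fold change −1.01 ± 0.36, adjusted p = 0.0213, edgeR). Pcdhgb8, next to last among them, went from 4.25, 4.89 and 4.78 CPM to 1.69, 2.93 and 2.66 (−0.93 ± 0.39, adjusted p = 0.043). Neither pair of ranges overlapped. The last of them, Pcdhga12, had fallen by day 6 (−1.17 ± 0.40, adjusted p = 0.021) and read −0.87 on day 8, with an adjusted p of 0.064.

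The C-type gamma isoforms did not follow the beta genes. Pcdhgc3 stood at 35.5, 52.5 and 51.7 CPM on day 6 and 44.4, 58.7 and 47.9 on day 8 (log2 0.26 ± 0.38 against day 0, adjusted p = 0.58), overlapping with day 0, and the sign turned (−0.050) without day 0 library 3. Pcdhgc4, known to be needed for the survival of many neurons, went from 2.21, 1.87 and 1.49 CPM to 2.08, 3.66 and 2.63 (adjusted p = 0.22). Pcdhgc5 went from 3.53, 6.11 and 2.14 CPM to 0.979, 2.48 and 2.21 (−1.06 ± 0.51, adjusted p = 0.085). Per kilobase of exon bases of its own, Pcdhgc3 was still the most abundant member in WT on day 8, at 19.6 ± 2.91 CPM per kb (SD, n = 3). The highest beta gene on that scale was Pcdhb17 at 5.96 ± 1.71, and the highest alpha isoform Pcdha3 at 1.5 ± 1.52.

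The rise was spread over both intervals. From day 0 to day 6, 18 members were higher and 2 lower (37.3% of all genes called, 19% higher and 18.2% lower), among them 10 of 21 beta genes. From day 6 to day 8, 15 were higher and 0 lower (7.34% of all genes called, 4.59% higher), of which 14 were beta genes and 1 was Pcdhga5. That later count fell to 0 when day 6 library 2, day 6 library 3 or day 8 library 1 was left out. The earlier count was 13 without day 6 library 1.

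In the EB series 10 of 51 tested members rose by the last day, day 10, most of them beta genes. Over that interval a smaller share of members than of all genes was called, and a somewhat larger share was called higher. None of the 51 members tested was called between day 0 and day 6 in WT (7.88% of all 17791 genes called; 1 member at an unadjusted p below 0.05, 0 by DESeq2). The log2 change was below 0 for 34 of them and above it for 17. Between day 0 and day 10, 10 were higher and 0 lower (29.2% of all genes called, 14.7% higher and 14.5% lower): 8 of 19 beta genes, Pcdhac2 and Pcdhga2. The median log2 fold change of the members was 0.91, against −0.02 for all genes. The count was 6 without day 0 library 1, 4 without day 0 library 2, 4 without day 10 library 2 and 5 without the libraries of WT and CBX7-CaPS numbered 1. Between day 6 and day 10, 12 were higher and 1 lower (16.2% of all genes called, 9.07% higher and 7.12% lower). Leaving out single libraries took that count of 13 to between 4 and 10.

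**Figure D3:**
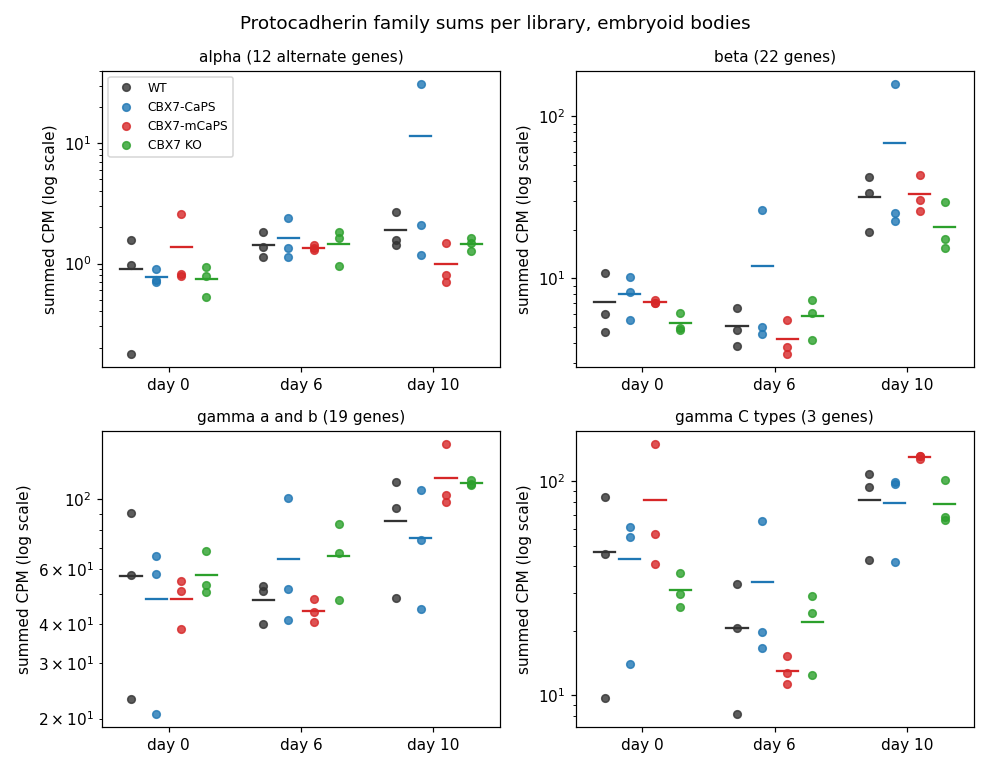
Summed CPM of the same 4 groups of isoforms in each EB library (points, by genotype) on days 0, 6 and 10, on logarithmic y axes, with short lines at group means. WT beta sums reached 19.3–42.4 on day 10, and the CBX7-CaPS library 3 lies apart from the other day 10 libraries in alpha and beta.

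The beta genes summed to 4.63, 6.02 and 10.8 CPM on EB day 0, to 3.83, 6.53 and 4.79 on day 6 and to 42.4, 33.6 and 19.3 on day 10. Day 10 was above both earlier days in all 3 libraries, but below every WT library of NPC day 8, in tables scaled separately. Pcdhb22 carried much of it, from 1.19, 0.967 and 2.58 CPM on day 0 to 20.9, 7.18 and 6.91 on day 10 (log2 2.86 ± 0.45, adjusted p = 2.97e-05, edgeR). Of the 22 beta genes 9 reached 0.5 CPM in every day 10 library, 7 of them the run from Pcdhb16 to Pcdhb22. The alternate alpha isoforms gave 0 calls of 8 tested between day 0 and day 10 (2 at an unadjusted p below 0.05).

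Pcdhac2 was called higher on the last day in the EB series but not in the NPC series. Those days differ, and this difference was not tested. The day 6 change of Pcdhac2 was not called between the series (log2 difference 0.83 ± 1.01 for NPC over EB, adjusted p = 0.74, edgeR). In the EB series Pcdhac2 went from 0.178, 0.558 and 0.839 CPM to 3.25, 3.41 and 2.73 (log2 2.51 ± 0.70, adjusted p = 0.0071, edgeR), with no overlap. It was the alpha member with the highest mean over the EB libraries, 1.09 CPM. Pcdhga2 went from 1.13, 2.68 and 3.64 CPM to 6.36, 11.1 and 9.61 (log2 1.84 ± 0.41, adjusted p = 0.0011), also without overlap. Pcdhga11, the gamma a isoform with the highest EB mean (5.62 CPM), went from 2.49, 4.27 and 6.71 to 4.76, 8.59 and 7.48 CPM and its ranges overlapped. Pcdhgc3 spread widely on day 0 (8.55, 40.9 and 75.8 CPM) and stood at 37.6, 97.3 and 84.5 on day 10 (adjusted p = 0.35). Library 1 was the lowest on both days, and it was the lowest for most gamma isoforms.

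Since the series end on different days, only day 6 was compared directly. The WT change from day 0 to day 6 was larger in NPC than in EB for 4 of 55 members and smaller for 0, near the share called among all genes (5.97% of all 18407 genes called, 3.36% higher). These were Pcdhb16 (difference of log2 changes 4.00 ± 1.00, adjusted p = 0.0079, edgeR), Pcdhb21 (4.11 ± 1.17, 0.022), Pcdhgb6 (2.28 ± 0.69, 0.034) and Pcdhb22 (2.19 ± 0.66, 0.035). The log2 difference was above 0 for 50 of the 55, with a median of 1.31 against 0.05 for all genes. The count was 1 without NPC day 0 library 3, 2 without NPC day 6 library 1, 0 without EB day 0 library 3 and 1 without EB day 6 library 1. The WT libraries of EB days 0 and 6 were taken as paired by replicate number, and with that block the count was 2: Pcdhgb6 and Pcdhb22 were no longer called (adjusted p = 0.074 and 0.073). Differentiation series and sequencing table cannot be told apart in this test.

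CBX7-CaPS cells turned the clusters on in the NPC series too, and no member was called between them and WT. The beta genes summed to 240, 119 and 118 CPM in CBX7-CaPS on day 8 and the alternate alpha isoforms to 41, 4.61 and 6.72. Within the line 39 members rose from day 0 to day 8 and 0 fell (48.6% of all genes called, 26% higher), including all 21 tested beta genes and 7 of 9 alpha isoforms. Against WT 0 members were called on day 0, day 6 or day 8 (0%, 0% and 0.0112% of all genes called). Unadjusted p-values below 0.05 were found for 2, 3 and 3 members, and DESeq2 called 0 on each day. Library 1 was the highest in both genotypes, and in CBX7-CaPS it held the neuron marker sum of 2569 CPM against 396 and 758 in libraries 2 and 3.

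CBX7-mCaPS cells fell short of WT in alpha and beta on NPC day 8. Of the 54 members tested 14 were lower and 1 higher (18.5% of all genes called, 9.39% higher and 9.06% lower): 6 of 9 alternate alpha isoforms and 8 of 21 beta genes were lower, and Pcdhgc3 was higher. The median log2 difference was −0.98 over all members, −3.15 for the alternate alpha isoforms and −2.02 for the beta genes, against 0 for all genes. No gamma a or gamma b isoform was called, and 1 of those 19 had an unadjusted p below 0.05. The count of 15 was 2 without WT library 1, 4 without CBX7-mCaPS library 2 and 1 without CBX7-mCaPS library 3.

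**Figure D4:**
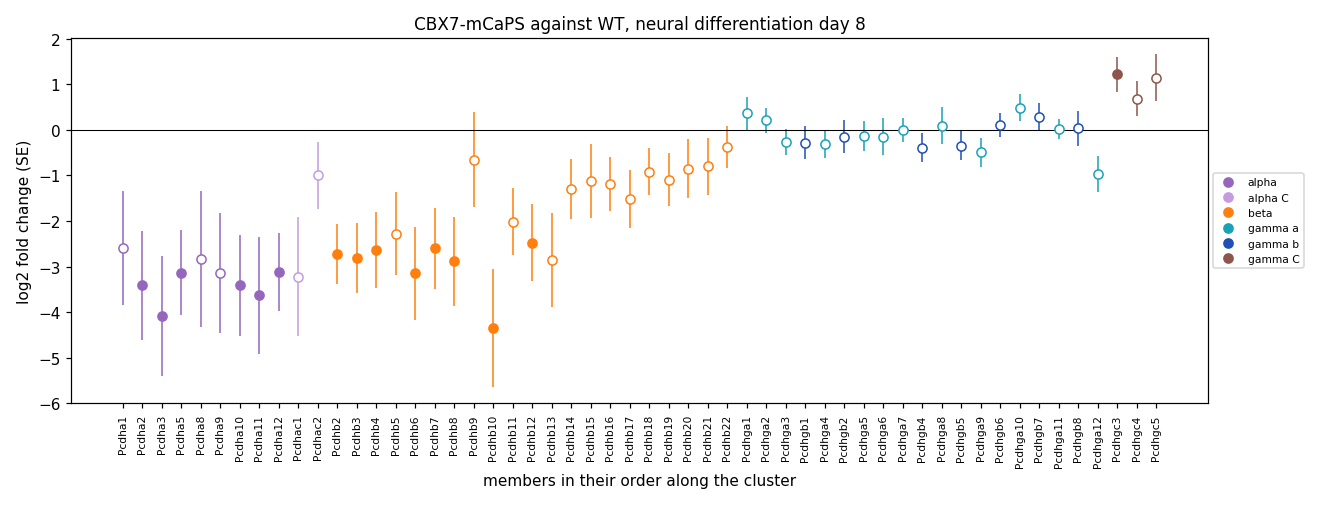
Log2 difference of every tested member between CBX7-mCaPS and WT on NPC day 8, ordered along the clusters, with standard errors as bars and filled points for adjusted p below 0.05. Alpha and beta genes all lie below 0, the gamma a and b isoforms lie around it, and Pcdhgc3 is the filled point above it at 1.22.

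Alternate alpha isoforms were the lowest relative to WT in this line. They summed to 3.26, 1.1 and 0.647 CPM on day 8 against 33, 9.96 and 10.6 in WT, with no overlap. Pcdha3 stood at 0.377, 0.096 and 0.129 CPM against 7.66, 1.02 and 1.95 in WT (log2 −4.09 ± 1.31, adjusted p = 0.030, edgeR). Pcdha12 stood at 0.293, 0.336 and 0.194 CPM against 2.37, 2.48 and 2.44 (−3.12 ± 0.85, adjusted p = 0.012). In both genes every CBX7-mCaPS library lay below every WT library. Pcdha10 (−3.41 ± 1.11), Pcdha11 (−3.63 ± 1.28), Pcdha2 (−3.41 ± 1.20) and Pcdha5 (−3.14 ± 0.93) were also lower. Within the line 0 of 9 alternate alpha isoforms passed between day 0 and day 8, at any of the edgeR adjusted or unadjusted thresholds of 0.05.

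Beta genes did rise in CBX7-mCaPS, to lower levels. On day 0 their median log2 difference from WT was already −0.82, with 16 of 21 below 0, 3 above and 0 called. The difference in change from day 0 to day 8 had a median of −0.62, with 15 below 0 and 6 above. The beta genes summed to 114, 52.3 and 31.6 CPM on day 8, all below the lowest WT library, and 18 of 21 rose within the line from day 0 (30 members higher and 1 lower, with 46.2% of all genes called, 24.7% higher and 21.5% lower). Pcdhb2 stood at 2.15, 1.37 and 0.582 CPM against 13.7, 6.94 and 6.87 in WT (−2.73 ± 0.66, adjusted p = 0.0057, edgeR), without overlap. Pcdhb10 stood at 0.418, 0.096 and 0 CPM against 7.39, 1.94 and 1.84 (−4.35 ± 1.30, adjusted p = 0.024). Pcdhb3 (−2.81 ± 0.77), Pcdhb6 (−3.15 ± 1.02) and Pcdhb8 (−2.89 ± 0.97) were lower as well. Pcdhb16 stood at 15.9, 8.35 and 5.27 CPM, below the WT range of 16.3 to 31.3, and was not called.

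The shortfall was unequal along the beta cluster. The 10 tested genes from Pcdhb2 to Pcdhb11 had a median log2 difference of −2.68 and 7 calls, and the 11 from Pcdhb12 to Pcdhb22 a median of −1.12 and 1 call, Pcdhb12. Across the 21 genes Spearman's rho between the log2 difference and the order in the cluster was 0.73, and 0.36 between the difference and the mean WT level on day 8. Genes of 1 cluster share libraries and are not independent, and the split was made after the values were seen, so these are descriptions. The same order held rho values of 0.72 in CBX7 KO and 0.71 in CBX7-CaPS, which share the WT libraries with this comparison and had 0 calls. Among the 19 gamma a and b isoforms rho was −0.02 in CBX7-mCaPS.

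**Figure D5:**
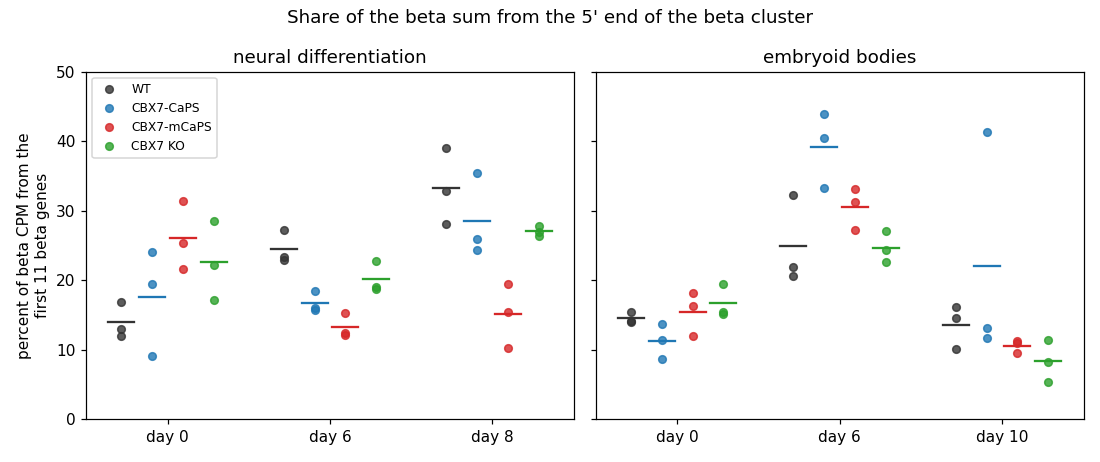
Share of beta cluster CPM in each NPC and EB library that came from the first 11 genes in cluster order (Pcdhb1 to Pcdhb11), in percent, by genotype and day, with short lines at group means. On NPC day 8 the CBX7-mCaPS libraries lie at 10.3–19.5%, below the WT libraries at 28.1–39.1%.

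In WT the first 11 beta genes made up 12% to 17% of the cluster's CPM on NPC day 0, 22.9% to 27.3% on day 6 and 39.1%, 28.1% and 32.8% on day 8. In CBX7-mCaPS the day 8 shares were 19.5%, 15.5% and 10.3%, in CBX7 KO 27.0%, 27.8% and 26.4%, and in CBX7-CaPS 35.4%, 24.4% and 25.9%. CBX7-mCaPS lay below WT, CBX7 KO and CBX7-CaPS on that day, with 977 to 5442 counts behind each of its shares. On NPC day 0 CBX7-mCaPS (21.6% to 31.5%) and CBX7 KO (17.1% to 28.5%) lay above WT instead, and CBX7-CaPS (9.07% to 24.1%) overlapped with it. On day 6 CBX7-mCaPS stood at 12.1% to 15.4%, CBX7-CaPS at 15.8% to 18.4% and CBX7 KO at 18.8% to 22.7%, all below WT. On EB day 10 the WT shares were only 10.2%, 16.1% and 14.5%.

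Pcdhgc3 went the other way. In CBX7-mCaPS it stood at 26.2, 13.5 and 22.1 CPM on day 0, 111, 76.1 and 121 on day 6 and 112, 96.5 and 144 on day 8, each day 8 library above all WT libraries (log2 1.22 ± 0.38, adjusted p = 0.026, edgeR). Pcdhgc5, at 3.64, 2.69 and 6.21 CPM, was above the WT range (adjusted p = 0.12), and Pcdhgc4, at 5.13, 3.07 and 5.27 CPM, overlapped with it (adjusted p = 0.22). All 3 C-type gamma isoforms rose within the line from day 0 to day 8. Pcdhac1 (0.167, 0.096 and 0 CPM; adjusted p = 0.081) and Pcdhac2 (0.0837, 0.288 and 0.129 CPM; adjusted p = 0.35) were not called against WT.

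Markers of other cells moved with these groups. On NPC day 8 the 15 neuron markers summed to 367, 200 and 191 CPM in CBX7-mCaPS against 1451–2763 in WT, and 11 neural progenitor markers to 471–948 against 2511–3281, with no marker of either list at 0. The 12 fibroblast markers summed to 1038, 736 and 2543 CPM against 71.8–241, and 8 cardiac and mesoderm markers to 233–401 against 9.88–35.2. In CBX7-CaPS libraries 1, 2 and 3 the fibroblast markers summed to 145, 1092 and 929 CPM beside Pcdhgc3 at 48.3, 104 and 81. Up to 2 of the fibroblast and 3 of the cardiac and mesoderm markers were at 0 in a library. The part of these cells in the protocadherin differences was not tested.

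Taken as a change from day 0 to day 8, CBX7-mCaPS differed from WT in 4 of 54 members (9.49% of all genes called, 4.68% higher and 4.82% lower). That is a smaller share of the members than of all genes. Pcdha12 (−3.66 ± 1.19, adjusted p = 0.048, edgeR) changed downward relative to WT: its mean went from 0.451 to 0.274 CPM in CBX7-mCaPS, a change that was not called, and from 0.315 to 2.43 in WT. Pcdhb2 (−3.09 ± 0.98, 0.043) also changed downward relative to WT, and Pcdhgc5 (2.59 ± 0.73, 0.024) and Pcdhgc3 (2.24 ± 0.54, 0.0094) changed upward relative to WT. Leaving out single libraries took the count to 1 or 2 in 8 cases. These were WT day 0 libraries 1 (2) and 2 (1), WT day 8 library 1 (1), CBX7-mCaPS day 0 libraries 1 (1), 2 (1) and 3 (2), and CBX7-mCaPS day 8 libraries 2 (2) and 3 (1). Before differentiation the log2 difference of CBX7-mCaPS from WT was below 0 for 41 of 54 members and above it for 11. On that day 1 member, no larger a share than among all genes, was called lower in CBX7-mCaPS than in WT, Pcdhga7 (log2 −1.04 ± 0.28, adjusted p = 0.037; 3.02% of all genes called, 1.97% lower). That call was lost without WT day 0 library 1 or 2 or without CBX7-mCaPS day 0 library 1 or 2, and 3 members were called without WT library 3. On day 6 0 members were called (2.22% of all genes called, 1.35% higher and 0.87% lower; 11 at an unadjusted p below 0.05, 2 by DESeq2).

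No member was called between the libraries labelled CBX7 KO and WT on NPC day 8. Their beta genes summed to 160, 122 and 35.5 CPM and their alternate alpha isoforms to 10.1, 9.02 and 4.1. Against WT 0 members were called on day 8 (0.0505% of all genes called, 0.0168% higher; 1 at an unadjusted p below 0.05, 0 by DESeq2) and 0 on day 6 (0.0281%, of which 0.00561% higher; 16 at an unadjusted p below 0.05, 0 by DESeq2). Library 3 was the lowest in both sums and had the lowest neuron marker sum, 349 CPM against 1618 and 1314. The log2 difference from WT still leaned one way in alpha and beta genes. On day 8 it was below 0 for 20 of 21 beta genes (median −0.99) and 9 of 9 alternate alpha isoforms (−1.31). On day 6 it was below 0 for all 21 and all 9, against 15 and 9 in CBX7-mCaPS. On day 0 it was already below 0 for 18 KO beta genes and above it for 1. Lower alpha and beta values were thus not particular to CBX7-mCaPS, but those in CBX7 KO were not called on days 6 or 8. Within the KO line 42 members rose from day 0 to day 8 and 0 fell (43.3% of all genes called, 23.3% higher). On day 0 1 member, a smaller share than among all genes, was lower than in WT, Pcdhb17 (log2 −2.89 ± 0.74, adjusted p = 0.018; 5.52% of all genes called, 2.4% higher and 3.11% lower). It was not called without KO library 1 or 2 or without WT library 1 or 2, and the count was 4 without WT library 3.

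CBX7-CaPS and CBX7-mCaPS were also compared with each other on NPC day 8. The log2 difference was above 0 for 50 of 54 members, with a median of 1.10 against 0.02 for all genes. Even so 0 were called (1.59% of all genes called; 24 at an unadjusted p below 0.05), while DESeq2 called 6, all higher in CBX7-CaPS. The lowest adjusted p by edgeR was 0.054. The count was 2 without CBX7-CaPS library 2, 1 without its library 3 and 4 without CBX7-mCaPS library 1.

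On EB day 10 CBX7-CaPS library 3 stood apart from the other libraries of its line in alpha and beta genes. The beta genes summed to 25.3 and 22.4 CPM in libraries 1 and 2 and to 158 in library 3, and the alternate alpha isoforms to 1.17, 2.08 and 30.9. Pcdha3 stood at 0.0937, 0.25 and 8.36 CPM and Pcdhb6 at 0.0937, 0.334 and 7.23. The first 11 beta genes made up 11.7%, 13.2% and 41.3% of the cluster. Library 3 also held 1293 CPM of neuron markers against 198 and 214, and on EB day 6 the third CBX7-CaPS library had 26.4 CPM of beta genes against 4.98 and 4.53.

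Of the EB comparisons of CBX7-CaPS, CBX7-mCaPS and CBX7 KO with WT on each day, none called a member by edgeR. The shares of all genes called were 0%, 0% and 0.00562% for CBX7-CaPS on days 0, 6 and 10, 0.916%, 0.54% and 0.708% for CBX7-mCaPS, and 0.641%, 0.646% and 0.877% for CBX7 KO. Members at an unadjusted p below 0.05 numbered 0, 3 and 17 for CBX7-CaPS, 0, 1 and 0 for CBX7-mCaPS and 3, 0 and 1 for CBX7 KO. DESeq2 called 1 in CBX7-CaPS on day 10 and 1 in CBX7 KO on day 0, and 0 in the other 7. In CBX7-mCaPS Pcdhgc3 stood at 117, 115 and 119 CPM on EB day 10, above the WT libraries. It was not called, and the lowest adjusted p of the C-type gamma isoforms there was 0.91 (edgeR). Between CBX7-CaPS and CBX7-mCaPS 4 members were higher in CBX7-CaPS (3.18% of all genes called, 2.7% higher): Pcdha2, Pcdha3, Pcdha5 and Pcdhb6. The count was 0 without CBX7-CaPS library 3 or CBX7-mCaPS library 2 or 3, 1 without CBX7-mCaPS library 1, and 8 and 9 without CBX7-CaPS libraries 1 and 2.

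The CBX7-CaPS-R libraries come from separate count tables that hold 53 of the 58 members. Their median depth was 21.5 M counts in NPC and 25.6 M in EB, against 39.2 M and 40.6 M in the other genotypes. Rn45s took 27.8% to 80.5% of counts in the CBX7-CaPS-R libraries of NPC and 25% to 65.2% in those of EB. The effect of the lower depth on the results for this line was not tested. Pcdha2, Pcdhga12, Pcdhgb2, Pcdhac1 and Pcdhac2 are not analysed in this line. In the NPC series its beta genes summed to 2.67 ± 1.52 CPM on day 0, 30.5 ± 11.5 on day 6 and 165 ± 30.5 on day 8 (SD, n = 3), and 41 of 47 members tested rose from day 0 to day 8 with 0 falling (47.8% of all genes called, 25% higher). Against WT on day 8 0 members were called (14% of all genes called; 2 at an unadjusted p below 0.05, 2 by DESeq2). Against CBX7-CaPS 3 gamma a isoforms were lower (19.1% of all genes called, 10.3% lower): Pcdhga1 (log2 −1.39 ± 0.43), Pcdhga10 (−1.34 ± 0.36) and Pcdhga2 (−1.07 ± 0.35). That is a smaller share of the members tested than of all genes. The count was 0 without CBX7-CaPS library 2 or CBX7-CaPS-R library 3, and 1 without CBX7-CaPS-R library 2. Line and table cannot be told apart in these comparisons.

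In the EB series the CBX7-CaPS-R beta genes summed to 20.0 ± 10.6 CPM on day 10 and the alternate alpha isoforms to 2.06 ± 1.90 (SD, n = 3). From day 0 to day 10, 8 of 26 members tested rose (21.5% of all genes called, 12.7% higher), led in level by Pcdhgc3 (log2 1.39 ± 0.31, adjusted p = 0.0077, edgeR). The count was 4 without day 10 library 3. Against WT on day 10 2 members were lower, Pcdhb11 and Pcdhb12, a smaller share than among all genes (17.3% of all genes called, 9.05% lower). That count was 0 without WT library 1 or 2 or without CBX7-CaPS-R library 1, and 1 without CBX7-CaPS-R library 2. Against CBX7-CaPS 9 were lower, among them Pcdhb11, Pcdhb5 and Pcdhb6 (14.2% of all genes called, 7.95% lower), but 0 without CBX7-CaPS library 3, 5 without CBX7-CaPS-R library 1 and 14 without CBX7-CaPS library 2.

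Related genes were read on lists of their own, in WT NPC day 8 against day 0, where 52.4% of all genes were called, 27.5% higher and 24.9% lower. The looping and the neighbour list had smaller shares of calls than all genes. Of 13 non-clustered protocadherins, which lack the shared-exon arrangement, 8 were higher and 0 lower, among them Pcdh8 (log2 5.57) and Pcdh10 (4.95), with a list median of 2.17. Of 11 classical cadherins 6 were higher and 1 lower, with N-cadherin (Cdh2) at 3.23 and E-cadherin (Cdh1) at −3.49. Of 12 cohesin and CTCF genes, whose looping links promoters to enhancers in the clusters, 3 were higher and 0 lower: Pds5b (0.81), Nipbl (0.78) and Stag2 (0.71). Of 18 genes of silencing and DNA methylation 7 were higher and 8 lower, among them the methyltransferase genes Dnmt3b (−4.74) and Dnmt3l (−7.32), Rest (−2.75), a repressor of neuronal genes, and Tet3 (2.92). Of 16 genes that neighbour the clusters 1 was higher and 5 were lower, including Diaph1 (−2.08) and Taf7 (−1.98). Of 16 signalling partners 8 were higher and 4 lower, such as the kinase genes Fyn (1.86) and Ptk2b (−4.76).

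Between CBX7-mCaPS and WT on NPC day 8, where 18.5% of all genes were called, the same lists gave these counts. Non-clustered protocadherins gave 1 higher and 3 lower of 13, with Pcdh8 at −4.43 and Pcdh19 at −2.95. The looping list gave 0 of 12, and the silencing list 2 higher and 2 lower of 18, with Rest at 0.68. Of the neighbours 1 was higher and 1 lower of 16, of the classical cadherins 2 higher and 3 lower of 11, and of the signalling partners 5 higher and 1 lower of 16. In WT EB day 10 against day 0, where 29.2% of all genes were called, the looping list gave 0 of 12, the silencing list 2 higher and 6 lower of 18, the signalling partners 1 higher of 15 tested, the non-clustered protocadherins 5 higher and 1 lower of 13, the neighbours 1 higher and 5 lower of 16, and the classical cadherins 4 higher and 0 lower of 11.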

How the data were processed

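Counts per gene were used as deposited. Per the submitters' processing notes, which give no order or role, featureCounts 1.6.3, STAR 2.7.0, HOMER 4.10.4, cutadapt 1.14 and edgeR were used with genome build mm10. The counting's handling of overlapping genes and strand is not given in the sources used here.

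Counts of 36 libraries a series were fitted together in edgeR 4.0.16 (R 4.3.3) with TMM scaling, filterByExpr and the quasi-likelihood F test, and p-values were adjusted by Benjamini and Hochberg over all genes. The NPC fit held 17818 genes and 54 members, the EB fit 17791 and 51. CBX7-CaPS-R counts were joined with the other tables on shared genes for comparisons with WT and CBX7-CaPS (15334 and 15379 genes, 49 and 48 members) and fitted alone across days (12763 and 13057 genes, 47 and 26 members). The day 6 comparison of series used 72 libraries, 18407 genes and 55 members. Comparisons with WT share the WT libraries. CPM uses TMM-scaled totals. Own exon bases are those in no other gene of the table. A lower bound sets a group at 0 to 3 counts over the group.

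Named members are the C-type isoforms, the highest member of each subfamily by mean CPM in a series, and up to 4 called members a subfamily and comparison with the largest changes. Other members named were chosen after their values were seen. Of each other gene list up to 4 genes are named, by adjusted p. Members and lists were chosen with earlier results of these data known. Same-numbered WT and CBX7-CaPS libraries deviated together on every day in both series (correlations 0.12 to 0.75), as did WT libraries across EB days (0.20 to 0.57), so these were taken as paired, from the data and not from the labels. No other comparison met that rule. The calls and adjusted p-values given come from fits without that pairing, and the replicate block was run only as an alternative. 9 value columns matched no sample and were not used, and rows whose gene names had turned into dates were left out. The fitting steps were tested on simulated counts. Alternatives were DESeq2 1.42.0, DESeq2 size factors, no filter, removal of Rn45s, a replicate block and leaving out each library.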

Additional observations from a re-analysis of the deposited data

Results flagged for a closer look

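The change from day 0 to day 8 differed between CBX7-mCaPS and WT, by a test of the difference itself, in 4 of 54 members: Pcdha12 (−3.66), Pcdhb2 (−3.09), Pcdhgc5 (2.59) and Pcdhgc3 (2.24), in log2 units. Of all genes 9.49% were called, a larger share than among the members. The count ranged from 1 to 4 when single libraries were left out.

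The WT change from day 0 to day 6 differed between the NPC and the EB series in 4 of 55 members: Pcdhb21 (4.11), Pcdhb16 (4.00), Pcdhgb6 (2.28) and Pcdhb22 (2.19), in log2 units. Of all genes 5.97% were called, a share near that among the members. The count ranged from 0 to 4 when single libraries were left out, and Pcdhgb6 and Pcdhb22 were not called with the replicate block.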

How the results depend on the processing

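Each count of called members was recomputed under every alternative. DESeq2's size factors and the removal of Rn45s moved none of the 39 counts by over 1.5 times, and no alternative of scaling turned the direction of a named member. Without the low-count filter the count went to 0 for CBX7-mCaPS against WT on NPC day 0 and to 2 for its change from day 0 to day 8. By DESeq2's own test, which moved 10 counts, it was 3 for CBX7-mCaPS against WT on NPC day 0, 2 on day 6 and 7 for the change, 2 for CBX7 KO on NPC day 0, 6 for CBX7-CaPS against CBX7-mCaPS on NPC day 8 and 7 on EB day 10, 2 for CBX7-CaPS-R against WT on NPC day 8, 1 for CBX7-CaPS against WT on EB day 10, 1 for CBX7 KO on EB day 0 and 14 for CBX7-CaPS-R from EB day 0 to day 10. Without the 6 EB libraries numbered 1 it was 5 for WT day 10 against day 0, 8 against day 6, 1 for CBX7 KO on day 0, 9 for CBX7-CaPS against CBX7-mCaPS and 15 for CBX7-CaPS-R against CBX7-CaPS. The cause of these shifts was not tested.

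With the replicate number as a block, counts moved in 6 comparisons, of which the day 6 comparison of series holds WT libraries taken as paired across EB days: to 0 for CBX7-mCaPS against WT on NPC day 0, 2 for its change, 1 for CBX7-CaPS against CBX7-mCaPS on NPC day 8 and 0 on EB day 10, 1 for CBX7-CaPS-R against WT on EB day 10 and 2 for the day 6 comparison of series. The block moved no other count by over 1.5 times.

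Leaving out single libraries gave ranges of 13 to 20 for WT NPC day 6 against day 0, 34 to 37 for day 8 against day 0 and 0 to 13 for day 8 against day 6. CBX7-mCaPS against WT on NPC ranged from 0 to 3 on day 0, from 1 to 20 on day 8 and from 1 to 4 for the change. CBX7 KO ranged from 0 to 4 on NPC day 0, 0 to 1 for its change (1 without KO day 0 library 3) and 0 to 1 on EB day 0 (1 without WT library 1). CBX7-CaPS ranged from 0 to 4 against CBX7-mCaPS on NPC day 8, 0 to 9 on EB day 10, and 0 to 1 against WT on EB day 10 (1 without its library 1 or 2). WT EB day 10 ranged from 4 to 9 against day 0 and 4 to 10 against day 6 (5 without day 10 library 2, 4, 8 and 5 without day 6 libraries 1, 2 and 3). CBX7-CaPS-R ranged from 0 to 4 against CBX7-CaPS on NPC day 8, 4 to 8 across EB days, 0 to 2 against WT and 0 to 14 against CBX7-CaPS on EB day 10. The day 6 comparison of series ranged from 0 to 4.

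Of 1823 alternatives for 159 results on single members, 1511 kept direction and call, 309 lost the call, 1 gained it and 2 turned: Pcdhac2 in WT NPC day 8 against day 0 without day 8 library 1 (range over left-out libraries −0.039 to 0.73) and Pcdhgc3 without day 0 library 3 (−0.050 to 0.45). Many alpha and beta genes had fewer than 10 reads a library on day 0, which limits their fold changes, and 3 libraries a group limit every call.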
